A study of Mus musculus with 16 samples.

Results

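miR-103 and miR-107 are a pair of near-identical vertebrate miRNAs made from introns of pantothenate kinase genes. Their 4 mature products were taken as all listed sequences whose miRNA name is miR-103-3p, miR-107-3p, miR-103-1-5p or miR-103-2-5p, with or without the number of the hairpin copy. They are 4 of 2274 miRNA names in the tables of 16 small RNA libraries. Of the 4, both 3p products passed the filter on low counts, which 807 names passed, and both 5p products did not.

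The libraries were made from C2C12 myoblasts, mouse muscle precursor cells in culture that form myotubes in low serum, here cells labelled PAX7 NEG. Control cells came as populations 1 and 2. Knockout cells (tKO) lack miR-206 as well as miR-1a-1 and miR-1a-2, and came as clones C1 and C2, so each tKO line is a single clone. Both genotypes were taken in growth medium with 20% FBS (GM) and after 3 days in 2% HS (DM3), with 2 biological replicates of each line, which gave 4 groups of 4 libraries. The 4 libraries of a group are therefore not 4 independent lines, and p-values measure the spread between these libraries. Lines 1 and 2 below are population or clone 1 and 2.

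The libraries held 112792 to 6543570 reads. In control cells, miR-206-3p, the muscle miRNA that was deleted, was at 1353 ± 385 TMM-scaled CPM (reads scaled to a common library size) in GM and 32256 ± 19940 in DM3 (SD, n = 4). In tKO cells it was at 7.32 ± 7.51 in GM and 17.3 ± 24.3 in DM3 (SD, n = 4). The 7 muscle miRNAs, which include the deleted ones, summed to 904 to 1523 CPM in control GM and 23112 to 59673 in control DM3, against 45.2 to 74.9 in tKO GM and 156 to 1082 in tKO DM3. The 5 blood miRNAs summed to at most 16.3 CPM in a library and the endothelial pair to at most 27.9, liver miR-122-5p reached 75.5 in tKO GM, the neuronal miR-124-3p was at 0 in all 16, and miR-208b-3p was at 0 in control DM3. The smallest library, tKO DM3 line 1 replicate 1, stood apart, with 18.9% of its reads listed at under 18 nt and 35.4% under miR-6240 or miR-6236. Next came control DM3 line 1 replicate 2, with 12.8% and 17.1%.

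As background, miRNAs are cut as duplexes from hairpins, and one arm is usually kept in Argonaute, where the seed near its 5′ end pairs with messenger RNAs. miR-103 and miR-107 share their seed. They are best known for targets in insulin signalling and for repressing Dicer, and their host genes code for the enzymes that start coenzyme A synthesis. Uridines or adenosines can be added to the 3′ end of a mature miRNA by nucleotidyl transferases, and such bases are called non-templated because the hairpin does not encode them.

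The 2 3p products are shown to make visible how little separates them, with seed bases 2 to 8 in capitals (RefSeq, GRCm38.p6).
miR-103-3p: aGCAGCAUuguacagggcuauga
miR-107-3p: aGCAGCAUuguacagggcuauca
They differ by G22C, counted from the 5′ end, so the first 21 bases are identical. A read that ends at or before base 21 cannot be placed. No other mature mouse miRNA in the RefSeq table has this seed, which 2 names hold. The 5p products come from the other arm.
miR-103-1-5p: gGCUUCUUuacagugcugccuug
miR-103-2-5p: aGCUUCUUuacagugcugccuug
miR-107-5p: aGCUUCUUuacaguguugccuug
miR-103-1-5p and miR-103-2-5p differ by G1A, and miR-107-5p, which is no member here, differs from miR-103-2-5p by C16U.

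The 3 hairpins are shown with both mature arms in capitals, because the bases after the 3p arm decide which read can be assigned to which copy.
Mir103-1: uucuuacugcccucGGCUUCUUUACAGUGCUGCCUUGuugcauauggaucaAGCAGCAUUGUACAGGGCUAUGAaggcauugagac
Mir103-2: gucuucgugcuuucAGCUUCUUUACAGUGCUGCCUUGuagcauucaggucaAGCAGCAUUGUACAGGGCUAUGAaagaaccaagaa
Mir107: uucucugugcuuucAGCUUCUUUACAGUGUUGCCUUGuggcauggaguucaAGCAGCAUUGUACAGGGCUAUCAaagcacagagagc
Mir103-1 lies at chr11:35782396-35782481 on the plus strand, Mir103-2 at chr2:131288052-131288137 on the plus strand, and Mir107 at chr19:34820687-34820773 on the minus strand (GRCm38.p6). In GENCODE M21 each lies in intron 5 of the 7-exon principal transcript of its host and on the host's strand. The host is Pank3 for Mir103-1, Pank2 for Mir103-2 and Pank1 for Mir107.

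Both 3p products were above the floor of 3 counts in every library, and miR-103-3p was the more abundant. Over the 16 libraries miR-103-3p averaged 2114 TMM-scaled CPM and ranked 71 of 807 names, and miR-107-3p averaged 154 and ranked 201. These levels follow the names as listed, whose limits are described further on.

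The level of miR-103-3p in control GM was 1977 and 2116 TMM-scaled CPM in the replicates of line 1 and 3290 and 2556 in those of line 2. In control DM3 it was 1053 and 1002 in line 1 and 1359 and 2059 in line 2. Both lines were lower after differentiation, and the groups overlapped by a single library, control DM3 line 2 replicate 2. In tKO GM the level was 2790 and 1157 in line 1 and 3107 and 2254 in line 2. In tKO DM3 it was 1550 and 1992 in line 1 and 3079 and 2479 in line 2. The tKO groups overlapped over most of their range, and in GM the replicates of tKO line 1 stood further apart than the lines did.

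The level of miR-107-3p in control GM was 189 and 222 TMM-scaled CPM in line 1 and 275 and 195 in line 2. In control DM3 it was 74.0 and 62.5 in line 1 and 50.8 and 132 in line 2, so every control DM3 library lay below every control GM library. In tKO GM it was 150 and 81.3 in line 1 and 323 and 158 in line 2. In tKO DM3 it was 93.6 and 133 in line 1 and 160 and 168 in line 2, within the range of tKO GM. The shallowest values rested on 22 reads in control DM3 and on 14 reads in tKO DM3.

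**Figure D1:**
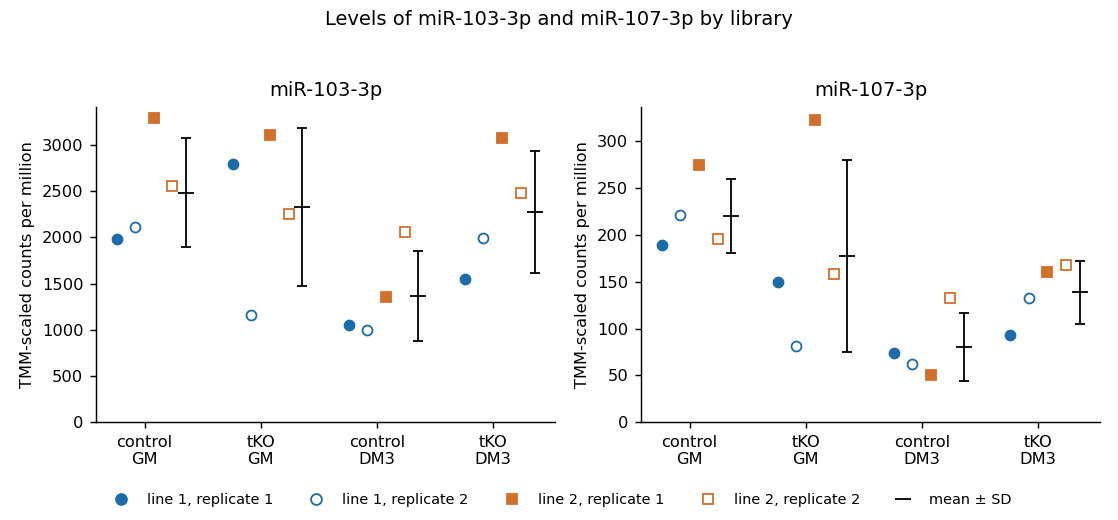
Levels of miR-103-3p (left) and miR-107-3p (right) in TMM-scaled CPM, in each of 16 libraries by group. Symbols give the line and replicate, and bars the mean ± SD of 4 libraries. The control DM3 libraries of miR-107-3p lie between 50.8 and 132 and all below control GM.

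In control cells miR-107-3p fell from 220 ± 39.0 to 79.9 ± 36.3 TMM-scaled CPM between GM and DM3 (SD, n = 4), a log2 fold change of -1.44 with an SE of 0.42 (edgeR quasi-likelihood test, adjusted p = 0.0152). It was lower in both lines, at 205 against 68.3 in line 1 and 235 against 91.6 in line 2. miR-103-3p was at 2485 ± 591 in GM and 1368 ± 486 in DM3, a log2 fold change of -0.86 with an SE of 0.34, which did not pass (edgeR adjusted p = 0.0716). With a replicate and line block it passed, at -0.87 (edgeR adjusted p = 0.0178). Its means by line were 2047 against 1028 and 2923 against 1709. In this comparison 27.6% of the 807 names passed the test, 128 of them upwards and 95 downwards, and 32.6% had groups that did not overlap, so that 1 of 2 members passing is not unusual for these libraries. Over all names the median log2 fold change was 0.02. Scaling by total counts moved that median to 0.39 and gave -1.08 for miR-107-3p (edgeR adjusted p = 0.0418) and -0.48 for miR-103-3p (edgeR adjusted p = 0.192).

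The call on miR-107-3p was lost without control GM line 2 replicate 1 (edgeR adjusted p = 0.0650), without control DM3 line 1 replicate 2 (edgeR adjusted p = 0.0645) and without control DM3 line 2 replicate 1 (edgeR adjusted p = 0.0625). Its log2 fold change in these 3 fits ran from -1.41 to -1.32. Without control DM3 line 2 replicate 2 miR-103-3p passed, at -1.23 (edgeR adjusted p = 0.0303).

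In tKO cells the 2 products showed no difference past the threshold between GM and DM3. miR-103-3p was at 2327 ± 855 in GM and 2275 ± 656 in DM3 (SD, n = 4), a log2 fold change of -0.03 with a 95% interval of -0.75 to 0.68 (edgeR adjusted p = 0.974). miR-107-3p was at 178 ± 102 and 139 ± 33.5, a log2 fold change of -0.34 with an interval of -1.21 to 0.53 (edgeR adjusted p = 0.624). With 1 library left out this value ran from -0.59, without tKO GM line 1 replicate 2, to 0.11, without tKO GM line 2 replicate 1. Of all names, 19.7% passed in tKO and 19% had groups that did not overlap. The tKO value of miR-103-3p was negative in 22 of 32 alternatives and ran from -0.32 to 0.42 over them, with 0.09 without the tKO DM3 library that stood apart.

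The difference between the control and tKO changes was tested as an interaction. It was 0.83 for miR-103-3p, with an SE of 0.48, and 1.10 for miR-107-3p, with an SE of 0.59, and neither passed (edgeR adjusted p = 0.937 for both). None of the 807 names passed this test (0.0%), while 37 had an unadjusted p under 0.05 in edgeR and 0 passed in a DESeq2 Wald test. A difference between the genotypes in the change of miR-107-3p is therefore not shown. Fold changes of the other comparisons that share these control libraries are not independent of it.

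Between genotypes neither product differed past the threshold. In GM the log2 fold change of tKO against control was -0.09 for miR-103-3p, with a 95% interval of -0.81 to 0.62 (edgeR adjusted p = 0.991). It was -0.26 without tKO GM line 2 replicate 1 and turned to 0.18 without control GM line 2 replicate 1. For miR-107-3p it was -0.31, with an interval of -1.17 to 0.55 (edgeR adjusted p = 0.966). With 1 library left out that value ran from -0.77, without tKO GM line 2 replicate 1, to -0.07, without tKO GM line 1 replicate 2. With a replicate and line block it was -0.63, where each line belongs to a single genotype, so the contrast need not be the same. None of these values was past the threshold. In GM 1.12% of all names passed and 8.92% had groups that did not overlap, which those of the members did. In DM3 the log2 fold change was 0.73 for miR-103-3p, with an interval of 0.02 to 1.45 (edgeR adjusted p = 0.423). For miR-107-3p it was 0.79, with an interval of -0.09 to 1.68 (edgeR adjusted p = 0.492). In DM3 0.867% of all names passed and 4.71% had groups that did not overlap, and those of the members overlapped here too. Without tKO DM3 line 1 replicate 1 the DM3 values were 0.95 and 0.99, without control DM3 line 2 replicate 2 they were 1.10 and 1.29, and without tKO DM3 line 2 replicate 1 they were 0.53 and 0.71. None of these passed (edgeR adjusted p from 0.129 to 0.540).

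In order of level, miR-103-3p ran from control GM through tKO GM and tKO DM3 to control DM3, and miR-107-3p from control GM through tKO GM and tKO DM3 to control DM3 as well. No neighbours in either order differed past the threshold.

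The level of miR-107-3p as listed depends on a single base near the end of the read. The tables give each listed sequence with separate columns for up to 2 non-templated bases, and the whole read is the sequence with its tail. The 86724 reads of the 3p products made up 1394 distinct whole reads. The most abundant ones are shown as DNA, as in the tables, with base 22, which separates miR-103 from miR-107, in capitals.
23 nt, miR-103: agcagcattgtacagggctatGa
22 nt, miR-103: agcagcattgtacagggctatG
22 nt, miR-107: agcagcattgtacagggctatC
23 nt, miR-107: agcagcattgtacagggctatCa
21 nt, both: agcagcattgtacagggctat
24 nt, miR-103 with a T tail: agcagcattgtacagggctatGat
22 nt, both with an A tail: agcagcattgtacagggctatA
The full-length miR-103-3p read made up 38.4% of the 3p reads, with 33320 reads, and its 22 nt form 16.9%, with 14658. The full-length miR-107-3p read made up 4.84%, with 4195 reads, and the 22 nt read that equals the start of miR-107 made up 4.92%, with 4271. The shared 21 nt read made up 4.46%, with 3865 reads.

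That 22 nt read ending in C was listed under miR-103-3p, as the shared 21 nt sequence with a C tail, although it matches the Mir107 hairpin without a tail. The 22 nt start of miR-107 had 0 untailed reads under its own name. Matching whole reads to the hairpins placed 9938 reads on Mir107 alone, of which 4716 were listed as miR-103-3p. By library, 38.0% to 64.0% of the reads that matched only Mir107 were listed as miR-103-3p. In the other direction, 20.2 of 61362 reads that matched only miR-103 hairpins were listed as miR-107-3p.

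The letters cannot tell a miR-107 read of 22 nt from a shared 21 nt read with a C added. A C after the shared 20 nt sequence, where no hairpin has a C, made up 508 of 1325 reads (38.3%). A C after the 21 nt sequence made up 4271 of 11094 (38.5%). Over all 3p reads, these whole reads made up 0.586% and 4.92%. A C after the 22 nt miR-103 sequence made up 1.19% of 18149 reads, and after the 23 nt sequence 0.985% of 39383. Shares by listed sequence leave out reads that go on along a hairpin where those are listed as the longer sequence. The 22 nt read ending in C goes on along Mir107 but is listed on the 21 nt sequence. The 38.5% therefore holds any untailed 22 nt miR-107 reads, while no hairpin adds a templated C to the 38.3%. The listed 22 nt miR-107 sequence had 489 reads with a single T tail and 0 untailed, against 1818 and 14658 for the 22 nt miR-103 sequence. How many of the 4271 reads came from miR-107 cannot be told apart here, so levels and ratios are given under both assignments.

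The ratio of the members was measured first from listed untailed sequences that cover base 22. In control GM miR-107 made up 9.81% and 11.3% of such reads in line 1 and 8.66% and 7.83% in line 2. In control DM3 it made up 5.82% and 6.39% in line 1 and 3.35% and 6.68% in line 2, each below every GM library. The counts behind the DM3 shares were 14, 47, 13 and 272 miR-107 reads, and the Wilson 95% interval of the lowest, 3.35%, ran from 1.97% to 5.65%. The log2 ratio of miR-103-3p to miR-107-3p was 3.28 ± 0.25 in control GM and 4.11 ± 0.47 in control DM3 (SD, n = 4). This difference of 0.83 had the smallest p that 70 assignments allow (exact permutation test, two-sided, p = 0.0286), and it did not pass after adjustment over the 44 exact tests run (Benjamini-Hochberg adjusted p = 0.105).

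In tKO cells miR-107 made up 5.58% and 6.95% in line 1 and 10.7% and 7.01% in line 2 in GM, and 5.96% and 7.01% in line 1 and 5.99% and 7.09% in line 2 in DM3. The groups overlapped, and the log2 ratios were 3.65 ± 0.43 and 3.83 ± 0.13 (SD, n = 4; exact permutation test, two-sided, p = 0.629). Between genotypes the log2 ratio was 0.37 higher in tKO in GM (exact permutation test, two-sided, p = 0.171) and 0.28 lower in tKO in DM3 (exact permutation test, two-sided, p = 0.286). Without control DM3 line 2 replicate 1 the DM3 value was -0.05, and without tKO GM line 2 replicate 1 the GM value was 0.57. Without the latter library the tKO difference between DM3 and GM, 0.18 with all libraries, was -0.02. Without tKO GM line 1 replicate 1 it was 0.32 and the GM value between genotypes was 0.23.

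With whole reads the difference in control cells was smaller. There miR-107 made up 13.4%, 16.8%, 15.1% and 13.9% of separating reads in GM and 12.9%, 13.4%, 10.4% and 13.6% in DM3, in the order of line 1 replicates 1 and 2 and line 2 replicates 1 and 2. These groups overlapped, and the log2 ratio was 2.53 ± 0.17 in GM and 2.80 ± 0.20 in DM3 (SD, n = 4). The difference was 0.27 (exact permutation test, two-sided, p = 0.0857). In tKO the whole-read log2 ratio was 2.82 ± 0.34 in GM and 2.61 ± 0.18 in DM3 (SD, n = 4; exact permutation test, two-sided, p = 0.314). The sign of the tKO difference thus turned between the listed and the whole-read ratio. Between genotypes the whole-read log2 ratio was 0.29 higher in tKO in GM (exact permutation test, two-sided, p = 0.2) and 0.19 lower in tKO in DM3 (exact permutation test, two-sided, p = 0.343). The full-length 23 nt reads alone, which leave out the 22 nt read ending in C, gave a log2 ratio of 2.70 ± 0.30 in control GM and 3.57 ± 0.50 in control DM3 (SD, n = 4). These groups did not overlap, and the difference was 0.87 (exact permutation test, two-sided, p = 0.0286, not adjusted). In tKO the difference of the 23 nt reads was 0.20 (exact permutation test, two-sided, p = 0.457).

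Levels from whole reads gave a log2 fold change between GM and DM3 in control cells of -1.03 for miR-103-3p (edgeR adjusted p = 0.0454) and of -1.29 for miR-107-3p (edgeR adjusted p = 0.0298). These levels count only reads placed on 1 member and leave out shared and unmatched reads, which the listed levels keep. In control, shared reads averaged 8.95% of 3p reads in GM and 13.6% in DM3. Unmatched reads made up 6.17% to 7.35% and 7.69% to 8.61%. The part of these reads in the fold changes was not tested. Under this count both members fell, where 227 names passed, against 223 as listed (27.6% of all names). With both 3p products summed as 1 name the log2 fold change was -0.97 (edgeR adjusted p = 0.0529). In tKO the whole-read values were -0.20 and -0.08, neither past the threshold (edgeR adjusted p = 0.758 and 0.928). Between genotypes they were -0.04 and -0.29 in GM (edgeR adjusted p = 0.997 and 0.965) and 0.78 and 0.92 in DM3 (edgeR adjusted p = 0.429 and 0.422). The interaction with whole reads was 0.83 and 1.21 (edgeR adjusted p = 0.918 for both).

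**Figure D2:**
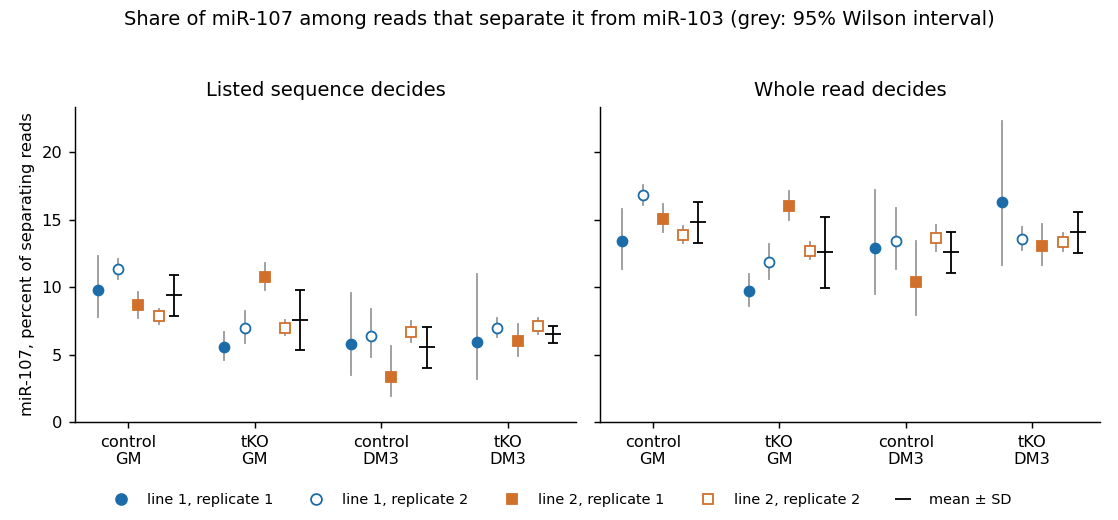
Share of miR-107, in percent, among the reads that separate it from miR-103, by listed sequence (left) and by whole read (right), in each of 16 libraries. Grey lines are Wilson 95% intervals of counting error, symbols give line and replicate, and black bars the mean ± SD of 4 libraries. Control GM and control DM3 do not overlap on the left and overlap on the right.

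Which member was the shorter depended on where the 22 nt read ending in C was counted. With that read counted as miR-107, lengths were compared over the part that matches the hairpin. For miR-103 the 22 nt form made up 27.2% to 37.8% of the 22 and 23 nt forms over the 16 libraries, and for miR-107 43.0% to 71.4%. As listed, the order was the opposite in all 16 libraries, since sequences of at least 23 nt made up 70% to 94.3% of mismatch-free miR-107-3p reads and 47.2% to 62.6% of mismatch-free miR-103-3p reads. The listed miR-103-3p also holds the shared reads of 21 nt or less. With the 22 nt read counted as miR-107, its 22 nt share was 50.0% ± 5.20 in control GM and 62.4% ± 6.12 in control DM3 (SD, n = 4), with no overlap (exact permutation test, two-sided, p = 0.0286, Benjamini-Hochberg adjusted p = 0.105). In tKO it was 50.2% ± 5.29 in GM and 59.4% ± 6.02 in DM3 (SD, n = 4; exact permutation test, two-sided, p = 0.0571). For miR-103 the groups overlapped in both genotypes, at 33.2% ± 3.44 and 31.8% ± 3.27 in control GM and DM3 (SD, n = 4; exact permutation test, two-sided, p = 0.657). Any C tails on shared 21 nt reads would count here as 22 nt miR-107.

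**Figure D3:**
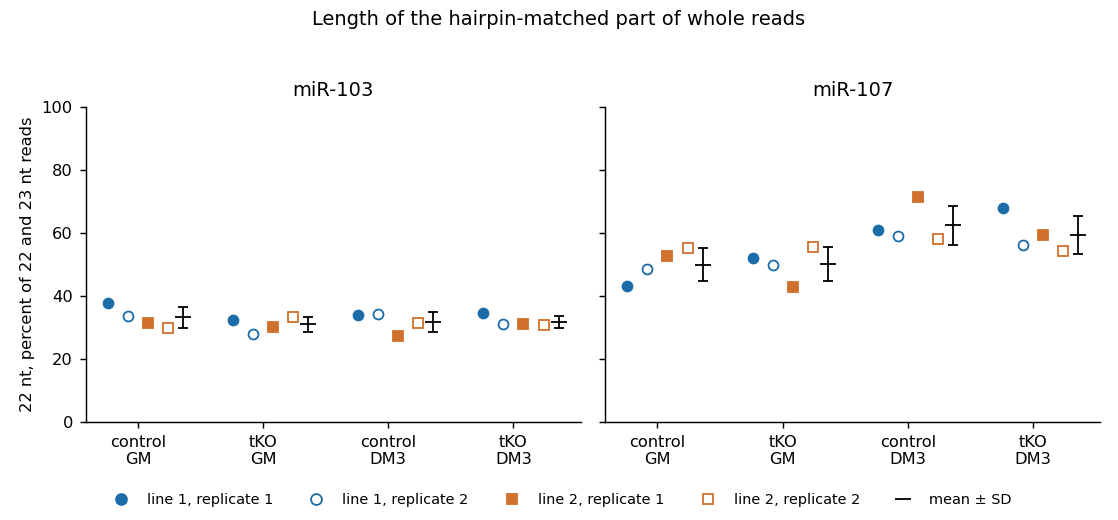
Share of 22 nt among the 22 and 23 nt hairpin-matched lengths, in percent, for miR-103 (left) and miR-107 (right) in each of 16 libraries, with the 22 nt read ending in C counted as miR-107. Symbols give line and replicate and bars the mean ± SD of 4 libraries. miR-103 stays between 27.2% and 37.8%, and miR-107 between 43.0% and 71.4%.

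Whole reads that match both hairpin kinds, too short to be placed, made up 8.95% ± 0.57 of 3p reads in control GM and 13.6% ± 2.18 in control DM3 (SD, n = 4; exact permutation test, two-sided, p = 0.0286, Benjamini-Hochberg adjusted p = 0.105). In tKO they made up 9.41% ± 1.28 and 15.0% ± 2.94 (SD, n = 4; exact permutation test, two-sided, p = 0.0286, Benjamini-Hochberg adjusted p = 0.105). In the same direction, 3p sequences of at least 23 nt made up 58.7% to 61.1% in control GM and 51.2% to 57.9% in control DM3. In tKO they made up 58.0% to 63.9% in GM and 49.6% to 57.9% in DM3. Over all miRNAs, sequences under 18 nt made up 1.88% to 6.49% of reads in GM and 2.96% to 18.9% in DM3, and their part in these lengths was not tested.

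Tails were less frequent in DM3 than in GM in both genotypes. As the tables list them, tails were on 28.7% and 31.5% of the 3p reads in line 1 and 28.1% and 28.5% in line 2 of control GM, and on 20.6%, 18.5%, 20.6% and 20.4% in control DM3. In tKO they were on 23.98%, 26.7%, 23.1% and 30.0% in GM and on 19.5%, 19.8%, 20.7% and 20.1% in DM3. No DM3 library reached the lowest GM library. The means differed by -9.18 percentage points in control and -5.93 in tKO (exact permutation test, two-sided, p = 0.0286 for each, Benjamini-Hochberg adjusted p = 0.105 for each). Differences of control and tKO changes, matched by line and replicate number, were not past the threshold (exact permutation test, two-sided, p = 0.2).

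Since the listed tails count the 22 nt read ending in C as a C tail, tails were also counted against the hairpins, where that read counts as untailed miR-107. Then tails were on 24.1% ± 1.79 of hairpin-matched 3p reads in control GM and on 15.1% ± 1.45 in control DM3, and on 21.5% ± 3.08 and 13.7% ± 2.12 in tKO (SD, n = 4 each). The groups again did not overlap between GM and DM3 in either genotype (exact permutation test, two-sided, p = 0.0286 for each, Benjamini-Hochberg adjusted p = 0.105 for each).

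Most of this difference was in tails that start with U, printed as T in the reads. In control GM such tails were on 13.04% and 16.4% of reads in line 1 and 13.8% and 15.5% in line 2. In control DM3 they were on 8.31%, 6.49%, 8.87% and 7.80%. In tKO GM they were on 11.02%, 15.3%, 11.1% and 16.9%, and in tKO DM3 on 5.75%, 6.61%, 7.43% and 7.61%. All 8 DM3 libraries lay below all 8 GM libraries. The difference was -6.81 percentage points in control and -6.71 in tKO (exact permutation test, two-sided, p = 0.0286 for each, Benjamini-Hochberg adjusted p = 0.105 for each), and the changes of the genotypes differed by 0.10 points (exact permutation test, two-sided, p = 0.943).

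As a share of all matched 3p reads, tails that start with A overlapped between all groups. They were on 3.36% ± 0.48 of reads in control GM, 2.89% ± 0.81 in control DM3, 3.09% ± 0.80 in tKO GM and 3.13% ± 0.63 in tKO DM3 (SD, n = 4 each). Nearly all of them sat on the shared sequences, where they made up 11.9% to 36.05% of the reads that match both hairpin kinds, against at most 0.512% of miR-103 reads and 0.442% of miR-107 reads. Among those shared reads A tails were on 32.3% ± 4.21 in control GM and 19.7% ± 5.62 in control DM3, with no overlap, and on 28.9% ± 4.19 in tKO GM and 19.95% ± 6.35 in tKO DM3, with overlap (SD, n = 4 each). These shares were not tested, and their denominator, the unplaceable reads, was itself a larger share in DM3. Of the 265 names described below, 62 had a listed A-tailed share that was lower in every control DM3 library than in every control GM library. In tKO this held for 33 of 232 names. Neither member as listed was among them in either genotype. An A after base 22 or 23 equals the next base of the hairpins, so an added A there is not seen as a tail.

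By member, U tails were on 6.49% to 18.3% of miR-103 whole reads and 2.03% to 15.8% of miR-107 whole reads. The highest miR-107 value, in control DM3 line 1 replicate 1, rested on 38 reads in all. For miR-107-3p as listed the tailed share was higher by 1.99 points in control DM3 than in control GM (exact permutation test, two-sided, p = 0.686), and in tKO the difference was -7.02 points (exact permutation test, two-sided, p = 0.143). Those listed shares hold the 22 nt form only where it carries a further tail, because the 22 nt read ending in C is listed under miR-103-3p. Among miR-107 whole reads, U tails were on 9.92%, 10.9%, 7.96% and 11.8% in control GM and on 15.8%, 5.88%, 4.0% and 5.61% in control DM3, so that 3 of 4 DM3 libraries lay below every GM library and the library of 38 reads lay above them all. In tKO they were on 6.52%, 9.86%, 6.23% and 13.9% of miR-107 whole reads in GM and on 6.67%, 2.03%, 5.24% and 4.0% in DM3. These tKO groups overlapped, through the DM3 library at 6.67%, which rested on 30 reads. No test was run on U tails of miR-107 alone.

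**Figure D4:**
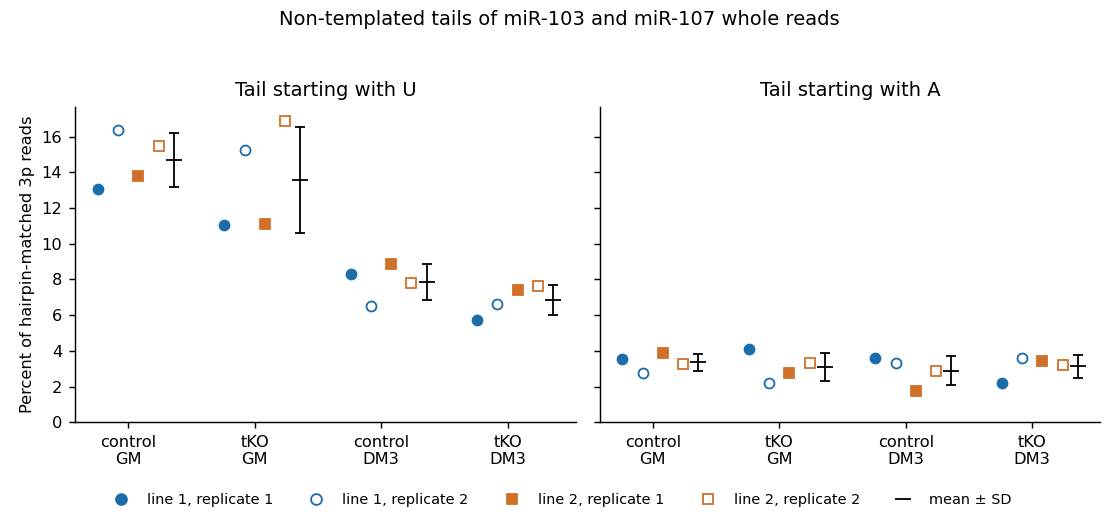
Percent of hairpin-matched 3p reads of miR-103 and miR-107 whose tail starts with U (left) or A (right), in each of 16 libraries. Symbols give line and replicate and bars the mean ± SD of 4 libraries. U tails lie between 11.02% and 16.9% in the GM libraries and between 5.75% and 8.87% in the DM3 libraries, while A tails overlap between all groups.

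Tails of other miRNAs give the background. Of 265 names with at least 100 TMM-scaled CPM in a group and at least 10 reads in each control library, 29.4% had a tailed share, as listed, that was lower in every control DM3 library than in every control GM library. In tKO this was 15.5% of 232 names. For tails that start with U this was 17.4%, and the median difference over the names was -0.52 points, against -7.42 for miR-103-3p, which ranked 16 from the lowest, and 1.83 for miR-107-3p, which ranked 239. In tKO, among the same 232 names, 11.6% did not overlap and were lower in DM3, with a median of -0.39 points against -6.73 for miR-103-3p, which again ranked 16, and -4.86 for miR-107-3p, which ranked 26. Names differ in how often they carry a U tail at all, with a median of 5.74% in control GM against 14.9% for miR-103-3p. Over all reads other than the members, U tails made up 8.67% to 10.1% in control GM and 10.6% to 15.2% in control DM3. The tKO libraries had 8.21% to 10.9% in GM and 9.62% to 20.8% in DM3. The median U-tailed share over names lay the other way, at 5.63% to 6.03% in control GM against 4.32% to 5.37% in control DM3. In tKO it was 4.95% to 6.13% in GM and 3.45% to 5.01% in DM3, and these overlapped. Reads listed under miR-6240 or miR-6236 made up at most 5.41% of a GM library and up to 35.4% of a DM3 library, and their part in the totals was not tested.

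At the 5′ end nearly all reads began at the annotated first base, 97.9% to 99.6% by library. Reads that began 2 bases later, which carry another seed, made up 0.303% to 1.95%. Sequences listed with G in place of the first A made up 1.66% to 4.88% of 3p reads. Over all libraries this share was 1.95% for miR-103-3p and 4.17% for miR-107-3p, and among 55 names that start with A it had a median of 1.12% and these ranked 12 and 3 from the highest.

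The 2 copies of miR-103 could be told apart in few reads, because the hairpins agree until past the end of the 3p arm. Over the 16 libraries 147 whole reads matched Mir103-1 alone and 617 matched Mir103-2 alone. In the deepest library these were 25 and 146. Past the arm both go on with an A and then part, with A in Mir103-2 and G in Mir103-1, so an added A looks like Mir103-2 and these counts do not give the output of each copy.

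The 5p arms were scarce. miR-103-1-5p and miR-103-2-5p together had 84.5 reads over the 16 libraries, against 86724 for the 3p products, and at most 17 reads in a library. In 4 libraries they had 0 reads, which allows a share of up to 0.105% of the 5p and 3p reads in tKO GM line 1 replicate 1, 0.119% in tKO DM3 line 2 replicate 1, 0.285% in control GM line 1 replicate 1 and 0.759% in control DM3 line 1 replicate 1. The highest share, 0.806% in tKO DM3 line 1 replicate 1, rested on 2 reads, with a Wilson 95% interval of 0.221% to 2.89%. Untailed reads that cover the first base and so separate the copies numbered at most 3 in a library, and no ratio was tested. The share of the 5p arm showed no difference past the threshold in any of the 4 comparisons (exact permutation tests, two-sided, p from 0.571 to 0.8).

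Other miRNAs from introns of protein-coding genes give a comparison. Of 25 listed, 24 were tested, and between GM and DM3 in control 2 rose, 7 fell and 15 did not pass, where 27.6% of all names passed. Both that rose, miR-378a-3p and miR-378a-5p, come from the same hairpin. Those that fell likewise included both arms of another hairpin, so these counts are not of independent loci. The list had a median log2 fold change of -0.68 against 0.02 for all names. Among the 3 most abundant, miR-26a-5p was at -0.65 (edgeR adjusted p = 0.211), miR-378a-3p, from the gene of the mitochondrial coactivator Ppargc1b, rose by 0.86 (edgeR adjusted p = 0.0180), and miR-140-3p fell by 1.16 (edgeR adjusted p = 0.00610). In tKO 2 of the 24 rose, again the miR-378a arms, and 2 fell, where 19.7% of all names passed, with a median of -0.28 against 0.01. Between genotypes 0 of the 24 passed in GM or DM3 in edgeR, where 1.12% and 0.867% of all names passed. Of the 24, 0 in GM and 3 in DM3 had an unadjusted p under 0.05 in edgeR, against 65 and 90 of all 807 names.

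The miR-15 and miR-16 group also starts with the letters AGCAGC, shifted by a base against miR-103 and miR-107. All 7 members were tested. In control cells 0 rose, 4 fell and 3 did not pass, where 27.6% of all names passed, with a median log2 fold change of -1.21 against 0.02 for all names. miR-16-5p, which restrains cell-cycle genes, fell by 1.44 (edgeR adjusted p = 0.0265), miR-15b-5p fell by 1.56 (edgeR adjusted p = 0.00129), and miR-503-5p was at -0.54 (edgeR adjusted p = 0.424). In tKO none of the 7 passed in edgeR, against 19.7% of all names, while 1 had an unadjusted p under 0.05, and the median was -0.02. In the interaction 0 of the 7 passed in edgeR, and 0 of all 807 names. An unadjusted p under 0.05 was found for 1 of the 7 and for 37 of the 807. miR-15b-5p is itself hosted by an intron and counts in both lists.

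Across the 16 libraries, the names whose log2 level most resembled that of the summed 3p products were miR-421-3p with a Pearson r of 0.963, miR-106b-5p with 0.960, miR-374b-5p with 0.949, miR-185-5p with 0.922 and miR-30c-5p with 0.919, out of 290 names compared. With miR-103-3p alone, the more abundant, these names had an r of 0.919 to 0.960, and with miR-107-3p alone 0.772 to 0.888. miR-103-3p and miR-107-3p had an r of 0.876 with each other. These are descriptions over libraries that share depth and group.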

How the data were processed

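Small RNA libraries were made with the NEBNext kit from 0.5 µg of total RNA and sized on a gel to 15 to 50 nt inserts, per the labels' protocols. The submitters' processing notes name cutadapt 1.15, STAR 2.5.4 and mm10, the build that GRCm38 names. The authors deposited unitas tables, per the file headers, with an expected count per listed sequence and per tail of up to 2 bases, not normalized. The trimming settings, unitas version and miRBase release are not given in the sources used here.

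Expected counts were summed by name. Of 2510 names, 236 without an exact mature sequence were merged into their mature name, which left 2274. Sums were rounded and tested in edgeR 4.0.16 (R 4.3.3) in 1 fit of 16 libraries with TMM, filterByExpr (minimum count 10) and Benjamini-Hochberg adjustment at 0.05, with 12 residual degrees of freedom. In simulated counts for DM3 against GM in control, with 752 names, 18 of 100 names changed 2-fold and 76 of 100 changed 4-fold were called, and 3 of 97 calls were false. Shares and ratios (0.5 reads added) were compared by two-sided exact permutation tests, 70 assignments of 4 against 4, smallest p 0.0286, adjusted over 44 tests. With 2 lines against 2 the smallest p is 0.333. Whole reads were matched exactly to the hairpins over at least 16 nt, starting within 3 bases of the mature start, with at most 3 tail bases. Replicate numbers served as a block in alternatives, and matched libraries only where changes of shares or ratios were compared between genotypes. Deviations of same-numbered libraries of different groups correlated at 0.101 on average, from -0.46 to 0.637 over 48 pairs. For differently numbered libraries the average was -0.0954. In GM the U-tailed share was higher in replicate 2 than in replicate 1 of every line, and in DM3 the lines went both ways. What the numbers share is not given in the labels. Intervals (Wilson, 95%) and the limit of 3 counts cover counting error only, since reads carry no molecular identifiers. The members, lists and tests were chosen with earlier results of these data known. Named were the members, the deleted miR-206-3p, up to 3 miRNAs of highest level per list, and the 5 most alike in level. DESeq2 1.42.0 served as an alternative.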

Additional observations from a re-analysis of the deposited data

Results flagged for a closer look

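In 5 of the 52 group and measure combinations a single library lay further from the other 3 than Dixon's 95% critical value allows, and chance alone flags about 1 in 20. The listed tailed share of control GM line 1 replicate 2 was 31.5%, against 28.1% to 28.7% in the others, and that of control DM3 line 1 replicate 2 was 18.5%, against 20.4% to 20.6%. The log2 ratio of miR-103-3p to miR-107-3p in control DM3 line 2 replicate 1 was 4.80, against 3.80 to 3.97, and rested on 13 miR-107 reads. In tKO DM3 line 1 replicate 1, the smallest library, the whole-read log2 ratio was 2.34, against 2.67 to 2.73. Its 22 nt share of miR-103 was 34.7%, against 30.7% to 31.2%.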

How the results depend on the processing

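Leaving out 1 library at a time gave 5 to 16 miRNAs changed between genotypes in GM (9 with all), 5 to 53 in DM3 (7 with all) and 0 to 1 in the interaction. The highest of these counts came without tKO DM3 line 1 replicate 1, and in GM also without tKO DM3 line 1 replicate 2. In GM the count was 15 with no filter, 5 at 10 CPM in 4 libraries, 20 in a DESeq2 Wald test, 16 with a replicate and line block, 2 with replicate 1 alone, 18 without mismatches and 15 at 18 to 25 nt. In DM3 it was 14, 7, 19, 22, 1, 13 and 20 under the same settings in turn, 4 in a fit of the groups compared and 70 with replicate 2 alone. Each line belongs to a single genotype, so counts between genotypes with a line block need not be of the same contrast. Between GM and DM3 in control the count of 223 was 85 with replicate 1 alone and 136 at 18 to 25 nt. In tKO the count of 159 was 82 in a fit of the groups compared and 74 with replicate 2 alone.

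For miR-103-3p in control the log2 fold change between GM and DM3 ran from -1.23 to -0.68 with 1 library left out. It passed in a DESeq2 Wald test (-0.87), in a fit of the groups compared (-0.80) and with a replicate and line block (-0.87). It also passed with whole reads (-1.03), which leave out shared and unmatched reads. It was weakest when scaled by total counts (-0.48, edgeR adjusted p = 0.192). It passed in 6 of 32 alternatives and was negative in all 32. For miR-107-3p it was lost with replicate 1 alone (-1.97), with replicate 2 alone (-1.06) and with both products as 1 name (-0.97), and ran from -1.93 to -1.32 with 1 library left out. It passed in 26 of 32 and was negative in all 32. With a replicate block miR-107-3p was at -1.43 and miR-103-3p at -0.84, and that block changed no member's call in edgeR.

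The log2 ratio difference in control was 0.27 with whole reads and 0.87 with 23 nt reads alone, and ran from 0.60 to 0.93 with 1 library left out. The difference in tailed share of tKO against control in GM (-3.27 points, exact permutation p = 0.143) ran from -4.61 to -2.32 with 1 library left out. It passed only without tKO GM line 2 replicate 2 (exact permutation p = 0.0286, not adjusted). In tKO the difference between DM3 and GM ran from -6.88 to -4.59, with an exact permutation p of up to 0.0571. It passed in 7 of 13 alternatives. Taking miR-107-3p alone gave tailed differences of 1.99 in control and -7.02 in tKO. Sequences of at least 23 nt then differed by 10.4 points between genotypes in DM3 and by 7.40 between GM and DM3 in tKO. With both 3p products these differences were -1.04 and -7.14 points, so both signs turned. The difference of 10.4 points passed (exact permutation p = 0.0286, not adjusted). Listing leaves out the untailed reads of the 22 nt form in all of these miR-107-3p values. Under the replicate block the ratio (0.83) and the tailed shares (-9.18 and -5.93) keep their values, and the smallest p of 36 assignments, 0.0556, is above the threshold by construction. Depth limits the 5p arms and miR-107-3p in DM3, where a library held as few as 14 reads of it. Whole reads, 23 nt reads and tails by first base were added after seeing the data.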
